A study of Mus musculus with 12 samples.

Results

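The distal convoluted tubule is the short nephron segment after the thick ascending limb that reabsorbs sodium chloride and magnesium under the control of WNK kinases. The 9 genes described here, of 24421 gene symbols in the deposited tables, were taken by name as the core of this segment and of its kinase pathway. They are *Slc12a3*, *Wnk1*, *Wnk4*, *Klhl3*, *Stk39*, *Kcnj10*, *Kcnj16*, *Trpm6* and *Pvalb*. RNA-seq libraries of whole kidneys from 12 male C57BL/6 mice at 6 weeks old formed 4 groups of 3. The baseline groups were WT and *Tet2*-/- mice labelled as healthy controls, and the IR groups were WT and *Tet2*-/- mice with renal ischemia-reperfusion injury. In the IR mice the pedicle of the right kidney was clamped for 60 min, the left kidney was removed, and tissue was taken 24 h later. An IR effect and an effect of this surgery cannot be told apart against unoperated mice. The *Tet2*-/- mice were bred from *Tet2*+/- pairs on a C57BL/6J background, so that all cell types carry the allele.

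In the distal convoluted tubule, low cell chloride or low plasma potassium activates WNK kinases. These phosphorylate SPAK, which in turn phosphorylates the sodium chloride cotransporter NCC and raises salt uptake. KLHL3 limits this signal by presenting WNK kinases to a ubiquitin ligase, and basolateral potassium channels link the pathway to plasma potassium. The segment is known for thiazide diuretics, which block NCC, and for inherited disorders of blood pressure, potassium and magnesium.

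The files identify each gene by a RefSeq transcript with mm9 coordinates. *Slc12a3* (NM_019415, chromosome 8, 96853108 to 96890121, plus strand) encodes NCC and defines the segment. *Wnk1* (NM_198703, chromosome 6, 119873987 to 119988673, minus strand) and *Wnk4* (NM_175638, chromosome 11, 101121881 to 101138723, plus strand) encode the kinases at the top of the pathway. *Stk39* (NM_016866, chromosome 2, 68048504 to 68310038, minus strand) encodes SPAK. *Klhl3* (NM_001195075, chromosome 13, 58106318 to 58203789, minus strand) encodes the adaptor of the CUL3 ubiquitin ligase. *Kcnj10* (NM_001039484, chromosome 1, 174271341 to 174304216, plus strand) and *Kcnj16* (NM_001252207, chromosome 11, 110829347 to 110889281, plus strand) encode Kir4.1 and Kir5.1, which join into the basolateral potassium channel. *Trpm6* (NM_153417, chromosome 19, 18824473 to 18967001, plus strand) encodes the apical magnesium channel. *Pvalb* (NM_013645, chromosome 15, 78021548 to 78034586, minus strand) encodes parvalbumin, a calcium buffer of the early segment that is also abundant in fast skeletal muscle.

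The promoters of 3 genes are shown because TET2 acts on methylated cytosine in CG dinucleotides. *Slc12a3* was taken because it defines the segment. *Pvalb* and *Wnk4* were the genes with an adjusted p under 0.05 after IR in *Tet2*-/- kidneys by edgeR, the main test used here. No methylation was measured here. Each sequence holds the 250 bases before an annotated start, read 5′ to 3′ on the strand of the gene from RefSeq (GRCm38.p6), and was placed on mm9 by an exact match. Capitals mark CG dinucleotides and the letters TATAAA. The *Slc12a3* window is chr8:96852858-96853107, the *Pvalb* window is chr15:78034668-78034917 and ends 81 bases upstream of the start in the files, and the *Wnk4* window is chr11:101121631-101121880.
Slc12a3: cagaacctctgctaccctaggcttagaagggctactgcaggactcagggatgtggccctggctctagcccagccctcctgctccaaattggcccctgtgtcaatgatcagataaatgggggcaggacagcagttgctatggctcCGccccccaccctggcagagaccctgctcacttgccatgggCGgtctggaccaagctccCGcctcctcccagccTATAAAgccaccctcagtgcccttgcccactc
Pvalb: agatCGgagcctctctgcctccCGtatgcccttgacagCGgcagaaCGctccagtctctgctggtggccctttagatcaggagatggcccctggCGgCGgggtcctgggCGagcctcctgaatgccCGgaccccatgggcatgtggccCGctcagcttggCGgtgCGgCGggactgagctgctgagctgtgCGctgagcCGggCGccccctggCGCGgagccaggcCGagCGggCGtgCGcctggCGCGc
Wnk4: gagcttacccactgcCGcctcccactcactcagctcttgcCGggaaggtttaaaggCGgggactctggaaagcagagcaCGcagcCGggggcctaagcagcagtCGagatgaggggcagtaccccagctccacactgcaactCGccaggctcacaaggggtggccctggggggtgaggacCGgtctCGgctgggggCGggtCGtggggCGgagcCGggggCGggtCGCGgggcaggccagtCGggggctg
The *Slc12a3* window held 3 CG dinucleotides, against 23 for *Pvalb* and 17 for *Wnk4*. A further RefSeq start of *Pvalb*, farther upstream and with its window at chr15:78036831-78037080, held 4 CG dinucleotides. Of 32851 RefSeq windows of this length, 71% held at least 3, 62.2% held at least 4, 13.3% held at least 23 and 23.5% held at least 17. TATAAA, searched on both strands, stood in the *Slc12a3* window from 32 to 27 bases before the start and in neither of the others, and 12.4% of all windows held it. GGGCGG, searched on both strands, occurred 2 times in the *Slc12a3* window, 3 times in the *Wnk4* window and not in the *Pvalb* window, against 32.7% of all windows with at least 1 copy. A match describes these letters only and is not evidence that a factor bound there.

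The libraries held from 51007362 to 107969879 counts on 1 transcript per symbol. *Tet2* was read first as the targeted gene. Its level was 9.15, 6.25 and 7.33 FPKM in WT baseline replicates 1, 2 and 3 and 9.25, 16.6 and 10.3 FPKM in the *Tet2*-/- baseline replicates. After IR it was 9.34, 3.97 and 3.86 FPKM in WT and 2.64, 3.20 and 1.76 FPKM in *Tet2*-/- kidneys. The transcript was therefore not lower in the baseline libraries labelled *Tet2*-/-, and which exons are deleted is not given in the sources used here, so genotypes are named by their labels throughout. Adipocyte markers (10 genes) summed to 59.9, 146 and 294 FPKM in WT baseline replicates 1, 2 and 3, to 39.0 to 72.5 FPKM in *Tet2*-/- baseline, to 15.1 to 72.8 FPKM in WT IR and to 114, 81.5 and 604 FPKM in *Tet2*-/- IR replicates 1, 2 and 3. In *Tet2*-/- IR replicate 3, 11 markers of the thick ascending limb also summed to 425 FPKM, against 2220 and 2723 FPKM in replicates 1 and 2. In WT IR replicates 1, 2 and 3, 8 podocyte markers summed to 28.9, 29.6 and 5.28 FPKM and 10 endothelial markers to 125, 76.8 and 17.5 FPKM, so that replicate 3 was lowest. All 12 proximal tubule and all 11 thick ascending limb markers had a mean of at least 1 FPKM in every group. Where leaving out such a library moved a call of the 9 genes, the value or count is given both ways. The other genes named below were refitted without *Tet2*-/- IR replicate 3 and, in the WT comparison, without both WT baseline libraries 2 and 3. They were not refitted without WT IR replicate 3. The part of fat tissue or of sampled kidney region in these libraries was not tested. Of the 9 genes, 7 had their lowest level of all 12 libraries in *Tet2*-/- IR replicate 3, which was the lowest library for 12.9% of 12214 genes with a mean of at least 1 FPKM. Likewise 6 of the 9 had their highest level in WT baseline replicate 3, which was the highest library for 8.24% of those genes.

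All 9 genes were expressed in all 12 libraries, with *Kcnj16* highest and *Slc12a3* second by mean FPKM in each of the 4 groups. In WT baseline kidneys the means ran from 112 ± 28.4 FPKM (SD, n = 3) for *Kcnj16* and 82.4 ± 23.9 FPKM (SD, n = 3) for *Slc12a3* down to 2.05 ± 0.647 FPKM (SD, n = 3) for *Trpm6*. Between them stood *Wnk4* (39.4 FPKM), *Pvalb* (27.1 FPKM), *Wnk1* (23.1 FPKM), *Kcnj10* (9.11 FPKM), *Stk39* (8.45 FPKM) and *Klhl3* (2.21 FPKM). FPKM is scaled to transcript length, so these levels can be compared between genes. In this order the libraries of *Kcnj16* and *Slc12a3*, of *Wnk4* and *Pvalb*, of *Pvalb* and *Wnk1*, of *Kcnj10* and *Stk39*, and of *Klhl3* and *Trpm6* overlapped. *Pvalb* held the fourth place at baseline in both genotypes and the seventh after IR in both.

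**Figure D1:**
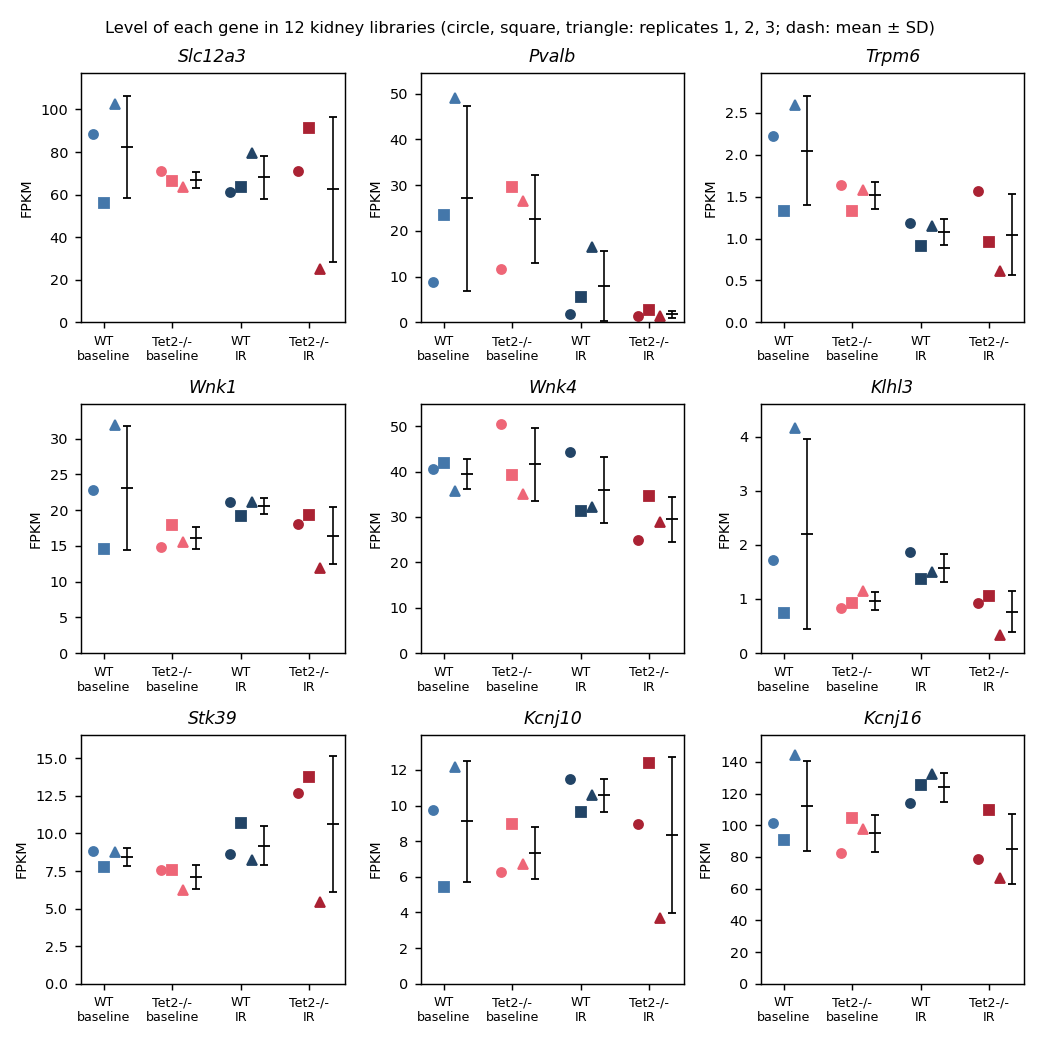
FPKM (y axis, linear from 0) of each of the 9 genes in the 12 libraries, by group on the x axis, with a symbol per replicate and the mean ± SD of 3 replicates as a dash with bars. *Pvalb* sat between 1.29 and 2.69 FPKM in the *Tet2*-/- IR libraries and between 11.6 and 29.6 FPKM in the *Tet2*-/- baseline libraries, and *Tet2*-/- IR replicate 3 was the lowest library for 7 of the 9 genes.

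After IR in kidneys labelled *Tet2*-/-, *Pvalb* was the 1 gene of the 9 that fell past both thresholds used here. *Pvalb* was at 11.6, 29.6 and 26.5 FPKM in the baseline replicates and at 1.29, 2.69 and 1.37 FPKM in the IR replicates. Every IR library was below every baseline library. The mean fell from 22.6 ± 9.60 to 1.78 ± 0.783 FPKM (SD, n = 3), which is 7.90% of the baseline level. edgeR's quasi-likelihood test put the change at −3.94 ± 0.44 on the log2 scale (SE), with a 95% interval of −4.96 to −2.93 and an adjusted p of 0.000549. All further log2 fold changes come from this test unless another tool is named, with SE after the ± sign where given. In whole kidney RNA, fewer cells of a type and less RNA per cell cannot be told apart.

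*Wnk4* also had an adjusted p under 0.05 in this comparison, with a smaller difference. Its level was 50.5, 39.1 and 35.1 FPKM at baseline and 24.9, 34.7 and 28.8 FPKM after IR, so that the highest IR library lay just under the lowest baseline library. The change was −0.76 ± 0.18 (log2, SE, adjusted p = 0.0114), short of the fold threshold of 1. The adjusted p rose to 0.0508 when library sizes replaced TMM scaling and to 0.0619 and 0.0542 with limma on log2(FPKM + 1) and log2(FPKM + 0.1). Of the 4148 exon bases of *Wnk4* in the annotation, 306 overlap the antisense gene *Gm11615*, and the strand setting of the counting is not given in the sources used here.

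A gene was called where its adjusted p was under 0.05 and its log2 fold change was beyond −1 or 1. By this rule 1 of the 9 genes was called lower and 0 higher in *Tet2*-/- kidneys, while of 16358 genes tested 24.3% were called, 11.6% as lower and 12.7% as higher. By adjusted p alone 2 of the 9 were lower, against 20.3% of all genes. FPKM ranges did not overlap for 2 of the 9 genes, *Pvalb* and *Wnk4*, both lower, against 17.9% of all genes. The 1 of 9 called lower was a share close to the 11.6% of all genes. Their median log2 fold change was −0.43, beside 0.04 over all genes. The scaling shifts this reference, since with library sizes alone the median of all genes was 0.27 and the calls were 2860 higher and 1397 lower in place of 2078 and 1896.

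The other 7 genes did not pass in *Tet2*-/- kidneys. *Slc12a3* was at 71.2, 66.3 and 63.7 FPKM at baseline and at 70.9, 91.3 and 25.2 FPKM after IR. The IR libraries lay on both sides of the baseline range, and the log2 fold change was −0.39 (95% interval −1.26 to 0.48, adjusted p = 0.424). Without IR replicate 3 it was −0.04 (adjusted p = 0.828). *Stk39* was at 7.56, 7.54 and 6.21 FPKM at baseline and at 12.7, 13.7 and 5.44 FPKM after IR. IR replicates 1 and 2 were above all baseline libraries and IR replicate 3 was below them, with a log2 fold change of 0.30 (adjusted p = 0.416), which became 0.59 (adjusted p = 0.00965) without IR replicate 3.

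*Kcnj10* and *Kcnj16* did not share a direction under every scaling. *Kcnj10* was at 6.28, 8.99 and 6.69 FPKM at baseline and at 8.94, 12.4 and 3.68 FPKM after IR (log2 fold change −0.10, adjusted p = 0.839), a value that was 0.16 with library sizes alone. *Kcnj16* was at 82.3, 105 and 97.8 FPKM at baseline and at 79.0, 109.6 and 67.0 FPKM after IR (log2 fold change −0.43, adjusted p = 0.110). For *Kcnj16* the adjusted p was 0.0420 with DESeq2 (−0.45) and 0.0468 without IR replicate 2 (−0.57), both under the fold threshold. In both genes the IR libraries reached above and below the baseline libraries. *Trpm6* was at 1.64, 1.33 and 1.58 FPKM at baseline and at 1.56, 0.960 and 0.618 FPKM after IR, a log2 fold change of −0.79 (adjusted p = 0.0761) that became −1.23 (adjusted p = 0.00780) without IR replicate 1. *Wnk1* was at 14.9, 17.9 and 15.6 FPKM at baseline and at 18.0, 19.3 and 11.8 FPKM after IR (log2 fold change −0.24, adjusted p = 0.305). The IR libraries of *Wnk1* lay on both sides of the baseline range. *Klhl3* was at 0.829, 0.919 and 1.16 FPKM at baseline and at 0.917, 1.05 and 0.329 FPKM after IR (log2 fold change −0.62, adjusted p = 0.259). Without IR replicate 3 the log2 fold changes were −3.84 for *Pvalb* (adjusted p = 0.00165), −0.80 for *Wnk4* (adjusted p = 0.0162), −0.55 for *Trpm6* (adjusted p = 0.147), −0.33 for *Kcnj16* (adjusted p = 0.191), −0.29 for *Klhl3* (adjusted p = 0.420), −0.097 for *Wnk1* (adjusted p = 0.614) and 0.22 for *Kcnj10* (adjusted p = 0.361).

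**Figure D2:**
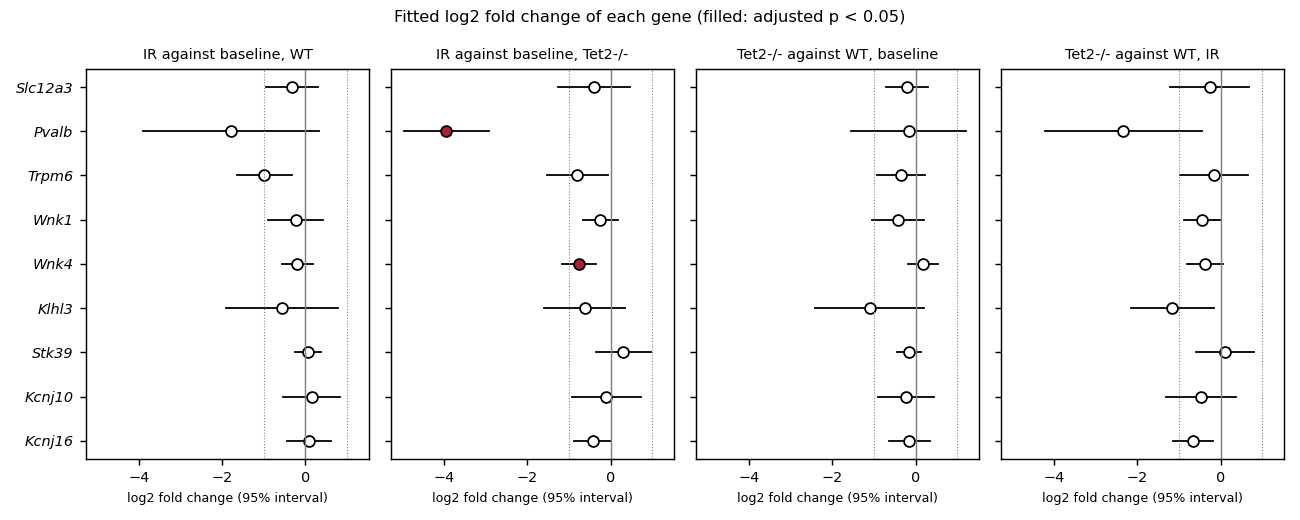
Fitted log2 fold change (x axis) of each gene (y axis) in 4 comparisons, as points with 95% intervals, filled where the adjusted p was under 0.05, with dotted lines at −1 and 1. The filled points are *Pvalb* at −3.94 and *Wnk4* at −0.76 in the comparison of IR with baseline in *Tet2*-/- kidneys.

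In WT kidneys *Pvalb* also had lower levels after IR, with a wide spread. It was at 8.79, 23.5 and 48.9 FPKM at baseline and at 1.77, 5.55 and 16.5 FPKM after IR. The groups overlapped, and replicate 1 was lowest and replicate 3 highest in both. The change was −1.78 ± 0.90 (log2, SE, 95% interval −3.90 to 0.34, adjusted p = 0.292). With the replicate number as a block it was −2.03 ± 0.21 (SE, adjusted p = 0.00481), past both thresholds, where that fit called 3.49% of all genes lower. The mice of a number differ and no label pairs them, so this value rests on a pairing taken from the data. Without WT baseline replicate 3 the unblocked value was −1.01 (adjusted p = 0.527), and without both WT baseline libraries 2 and 3, which leaves replicate 1, the lowest, as the only WT baseline library, it was −0.16, given without a test. Without WT IR replicate 3, the highest IR library, it was −3.00 (adjusted p = 0.179).

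*Trpm6* was at 2.22, 1.33 and 2.59 FPKM at baseline and at 1.18, 0.906 and 1.15 FPKM after IR in WT kidneys. All IR libraries were below all baseline libraries. The change was −0.99 ± 0.28 (log2, SE, adjusted p = 0.108), and −0.94 (adjusted p = 0.0256) with the replicate block. DESeq2 gave −0.98 (adjusted p = 0.0163), under the fold threshold.

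Without the replicate block, no gene of the 9 was called in WT kidneys by edgeR, DESeq2 or limma, while 2.35% of 16015 genes tested were called by edgeR. With the block edgeR called 1 of the 9, *Pvalb*. At an unadjusted p under 0.05, 1 of the 9 (*Trpm6*) passed, against 22.7% of all genes. *Trpm6* was the 1 gene whose FPKM ranges did not overlap, with IR lower, against 10.4% of all genes. The adjusted p values of the 9 genes ran from 0.108 to 0.856, and their median log2 fold change was −0.24, beside −0.03 over all genes.

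The other 7 genes had log2 fold changes between −0.56 and 0.15 in WT kidneys, and none passed. *Slc12a3* was at 88.5, 56.2 and 102.7 FPKM at baseline and at 61.1, 63.7 and 79.5 FPKM after IR (log2 fold change −0.33, 95% interval −0.96 to 0.29, adjusted p = 0.495). All 3 IR libraries of *Slc12a3* lay inside the baseline range. *Wnk1* was at 22.8, 14.6 and 31.9 FPKM at baseline and at 21.2, 19.2 and 21.1 FPKM after IR (−0.24, adjusted p = 0.656), and *Klhl3* was at 1.72, 0.747 and 4.15 FPKM at baseline and at 1.87, 1.37 and 1.50 FPKM after IR (−0.56, adjusted p = 0.598). For these genes WT baseline replicate 3 was the highest library, and without it both log2 fold changes were above 0, at 0.09 and 0.30.

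*Wnk4* was at 40.6, 41.9 and 35.6 FPKM at baseline and at 44.3, 31.3 and 32.1 FPKM after IR in WT kidneys, a log2 fold change of −0.20 (adjusted p = 0.496). *Stk39* was at 8.82, 7.77 and 8.76 FPKM and then at 8.64, 10.7 and 8.24 FPKM, a log2 fold change of 0.05 (adjusted p = 0.839). The groups overlapped for both. *Kcnj10* was at 9.76, 5.42 and 12.2 FPKM at baseline and at 11.5, 9.62 and 10.6 FPKM after IR (0.15, adjusted p = 0.801), and *Kcnj16* was at 101, 90.9 and 144 FPKM at baseline and at 114, 125 and 132 FPKM after IR (0.08, adjusted p = 0.856). Both channel genes had all IR libraries inside the baseline range.

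The genotypes did not differ detectably at baseline for any of the 9 genes. edgeR called 0 of 9, with 0 of 9 at an unadjusted p under 0.05, against 0.0124% of 16086 genes called and 11.8% at an unadjusted p under 0.05. DESeq2, which called 23 of all genes higher and 298 lower, and limma also called 0 of 9. *Klhl3* had the largest log2 fold change of *Tet2*-/- against WT, −1.10 ± 0.56 (SE, 95% interval −2.41 to 0.21, adjusted p = 0.476). It rested on WT baseline replicate 3, without which it was −0.25. *Stk39* was the 1 gene whose FPKM ranges did not overlap, with *Tet2*-/- libraries lower, against 16.5% of all genes, and its log2 fold change was −0.16 (adjusted p = 0.580). *Pvalb* had a log2 fold change of −0.17 with an interval of −1.56 to 1.22, so that a difference of either sign was not detectable at this spread. For the remaining genes the values were −0.21 for *Slc12a3*, −0.35 for *Trpm6*, −0.43 for *Wnk1*, 0.17 for *Wnk4*, −0.23 for *Kcnj10* and −0.15 for *Kcnj16*, with adjusted p values from 0.526 to 0.763.

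Between genotypes after IR, 0 of the 9 genes were called by edgeR, while of 16186 genes tested 6.15% were called. At an unadjusted p under 0.05, 3 of the 9 passed (*Pvalb*, *Klhl3* and *Kcnj16*), against 28.9% of all genes. DESeq2 called 2 of the 9 lower, *Pvalb* (−2.34, adjusted p = 0.00827) and *Klhl3* (−1.18, adjusted p = 0.0367), against 5.43% of all genes, and limma called 0. The median over the 9 genes was −0.44, beside 0.04 over all genes (0.14 with library sizes alone), and −0.29 without *Tet2*-/- IR replicate 3.

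*Pvalb* was at 7.95 ± 7.66 FPKM in WT and 1.78 ± 0.783 FPKM in *Tet2*-/- IR kidneys (SD, n = 3), and the groups overlapped because WT replicate 1, at 1.77 FPKM, was below *Tet2*-/- replicate 2, at 2.69 FPKM. edgeR gave −2.34 ± 0.80 (log2, SE, adjusted p = 0.108), and −1.10 (adjusted p = 0.300) without WT IR replicate 3. *Kcnj16* was at 124 ± 9.05 and 85.2 ± 22.0 FPKM (SD, n = 3), with all *Tet2*-/- libraries below all WT libraries and a change of −0.66 ± 0.20 (log2, SE, adjusted p = 0.0836). DESeq2 gave *Kcnj16* −0.67 (adjusted p = 0.00705), under the fold threshold. *Klhl3* was likewise separate, at 1.58 ± 0.260 and 0.766 ± 0.385 FPKM (SD, n = 3), with a change of −1.17 ± 0.42 (log2, SE, adjusted p = 0.125). FPKM ranges did not overlap for these 2 of the 9 genes, both lower, against 14.6% of all genes. Without *Tet2*-/- IR replicate 3, the values were −0.56 for *Kcnj16* (adjusted p = 0.135), −0.83 for *Klhl3* (adjusted p = 0.119) and −2.23 for *Pvalb* (adjusted p = 0.206). For *Slc12a3* the value was −0.27 (95% interval −1.22 to 0.69, adjusted p = 0.699), and 0.08 without that library.

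Whether the IR effect differed between genotypes was tested with an interaction term over all 12 libraries. It passed for 0 of the 9 genes by edgeR, DESeq2 or limma, while 9.16% of 16741 genes passed by edgeR. At an unadjusted p under 0.05, 1 of the 9 (*Wnk4*) passed, against 27.2% of all genes. *Pvalb* had the largest term, −2.13 ± 1.08 (SE, 95% interval −4.49 to 0.24, adjusted p = 0.228), and *Wnk4* had −0.52 (adjusted p = 0.182). With the replicate block the *Pvalb* term was −1.83 (adjusted p = 0.119), and leaving out WT IR replicate 3 changed the term to −0.90 (adjusted p = 0.593). *Pvalb* was called in *Tet2*-/- kidneys in both fits and in WT kidneys with the block alone, and a difference between genotypes is not shown by either term. The terms of the other 7 genes ran from −0.47 for *Kcnj16* to 0.29 for *Stk39*. The median of all genes was 0.10, and 0.24 with library sizes alone, where 1129 genes passed as higher and 700 as lower in place of 633 and 901.

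Parvalbumin is also a muscle protein, so the 12 skeletal muscle markers were read beside it. They summed to 2.48 to 3.95 FPKM in WT baseline, 2.83 to 3.63 FPKM in *Tet2*-/- baseline, 2.16 to 3.81 FPKM in WT IR and 2.25 to 3.31 FPKM in *Tet2*-/- IR kidneys. *Myh4*, a fast myosin, was at most 0.002 FPKM, *Ckm* at most 0.162 FPKM and *Acta1* at most 0.174 FPKM in any library. Of the 12 markers, 7 passed the low-count filter in the *Tet2*-/- comparison, with a median log2 fold change of −1.33. Of these, 4 were called lower and 2 higher, against 11.6% and 12.7% of all genes. Without IR replicate 3 the counts were 3 and 2 over 8 markers, against 11.9% and 13.6% of all genes, with a median of −0.89. The 4 were *Myh1* (means 0.104 and then 0.001 FPKM), *Actn3* (0.168 and 0.0353 FPKM), *Mylpf* (1.09 and 0.488 FPKM) and *Atp2a1* (0.283 and 0.134 FPKM), and the 2 were *Tnni2* (0.0887 and 0.623 FPKM) and *Casq1* (0.144 and 0.486 FPKM). In WT kidneys 0 of 7 were called, against 2.35% of all genes. With the replicate block 1 was lower, *Myh1* (−2.28, adjusted p = 0.0335), against 3.49% of all genes. The part of muscle RNA in the level of *Pvalb* was not tested. *Pvalb* at the same time ranged from 1.29 to 48.9 FPKM.

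NCC was next set against NKCC2, the sodium potassium chloride cotransporter of the neighbouring thick ascending limb, which SPAK also phosphorylates. The ratio of *Slc12a3* to *Slc12a1* within a library does not depend on library scaling. It was 0.457, 0.684 and 0.458 in WT baseline, 0.454, 0.436 and 0.602 in *Tet2*-/- baseline, 0.527, 0.723 and 0.926 in WT IR, and 1.25, 1.99 and 1.37 in *Tet2*-/- IR kidneys. All *Tet2*-/- IR libraries were above 1 and all other libraries below 1. The mean log2 ratio was higher by 1.02 after IR over both genotypes in an exact two-sided permutation test within genotype (p = 0.01 of 400 relabelings, smallest possible p 0.005), and the adjusted p over 6 ratio tests was 0.06, which did not pass. The difference was 1.61 within *Tet2*-/- kidneys and 0.43 within WT kidneys. *Tet2*-/- against WT within treatment gave 0.50 (exact permutation p = 0.12, adjusted p = 0.36), with 1.09 after IR and −0.09 at baseline.

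The log2 fold change was larger for the denominator than for the numerator. *Slc12a1* fell in *Tet2*-/- kidneys from 138 ± 28.1 to 40.3 ± 19.8 FPKM (SD, n = 3), or −2.05 ± 0.38 (log2, SE, adjusted p = 0.00456), beside −0.39 for *Slc12a3*. *Tet2*-/- IR replicate 3, with low levels of both genes, had a ratio of 1.37, between those of replicates 1 and 2. The other paired readings, *Wnk1* to *Wnk4* and *Kcnj10* to *Kcnj16*, gave mean log2 differences of 0.27 and 0.17 for IR (exact permutation p = 0.32 and 0.43) and −0.30 and 0.01 for genotype (exact permutation p = 0.285 and 0.91), with adjusted p values from 0.48 to 0.91. Leaving out 1 library, the IR differences ran from 0.098 to 0.44 for *Wnk1* to *Wnk4* and from 0.069 to 0.34 for *Kcnj10* to *Kcnj16*, and the genotype difference of *Wnk1* to *Wnk4* ran from −0.47 to −0.13.

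**Figure D3:**
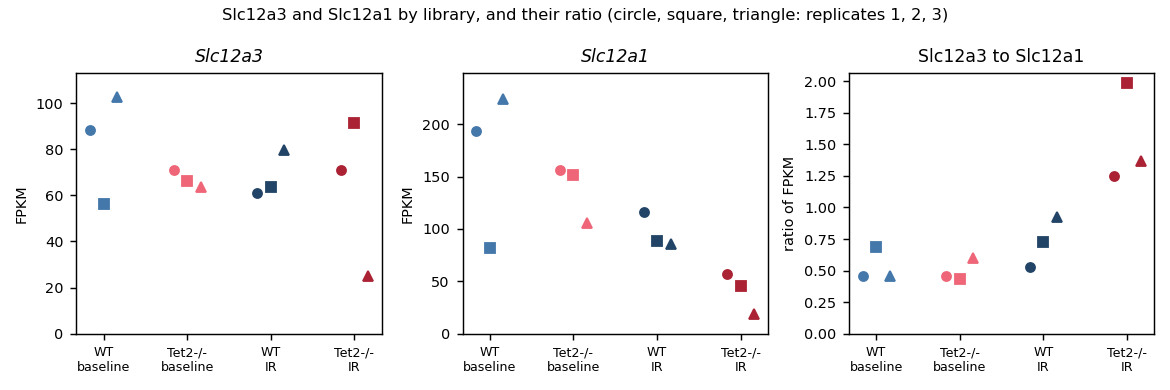
FPKM (y axis, linear) of *Slc12a3* and of *Slc12a1*, and their ratio, in each of the 12 libraries by group, with a symbol per replicate. The ratio was 1.25 to 1.99 in the *Tet2*-/- IR libraries and 0.436 to 0.926 in all others.

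The genes nearest to *Slc12a3* over the 12 libraries were found by the root mean square difference of centred log2(FPKM + 0.1) among 12214 genes with a mean of at least 1 FPKM. They were *Fam81a* (0.202), *Mitf* (0.202), *Slit2* (0.210), *Kng1* (0.236) and *Fam84a* (0.254), where the median over all genes was 0.609. Among the other 8 genes of the segment, *Kcnj10* (0.287) and *Wnk1* (0.305) were nearest and *Pvalb* (1.60) was farthest. Of all genes, 0.0819% were nearer to *Slc12a3* than *Kcnj10*, 0.139% than *Wnk1*, 20.1% than *Wnk4* and 98.3% than *Pvalb*. These points share libraries and depth, and WT baseline replicate 3 and *Tet2*-/- IR replicate 3 supply the extremes for most of the 9 genes.

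The deposited transcripts of a gene held nearly the same counts. The 5 deposited *Wnk1* rows share a start and an end, and the highest of them held at most 2.37% more counts than the lowest in any library, while their FPKM differed by up to 1.15-fold because their lengths differ. No row separates the short kidney form of WNK1, which lacks the kinase domain, from the long form. The 5 *Kcnj16* rows differed by at most 0.837% in counts and the 2 *Slc12a3* rows by at most 0.645%.

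Another 18 genes of the WNK pathway and 27 transport and identity genes of the segment were read in the same fits. In *Tet2*-/- kidneys after IR, 3 of 18 pathway genes were called lower and 0 higher, with a median of −0.06, beside the 24.3% of all genes called in either direction. Of the 27 transport and identity genes, 7 were called lower and 2 higher, with a median of −0.66. Among the largest changes were those of *Egf* (−3.67, adjusted p = 0.00578), a growth factor that stimulates the magnesium channel TRPM6, and of *Ppp1r1a* (−2.28, adjusted p = 0.00135), an inhibitor of protein phosphatase 1. *Slc12a1* (−2.05), *Kl* (−1.86, adjusted p = 0.00120), which encodes klotho, and *Pcbd1* (−1.81, adjusted p = 0.000321), which encodes a partner of the HNF1 transcription factors, fell as well. *Egf* and *Slc12a1* are also among the markers used for the thick ascending limb.

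The 2 genes called higher were named after their values were seen. *Trpv5*, the apical calcium channel, was at 1.26 ± 0.412 and then 5.23 ± 2.56 FPKM (SD, n = 3), or 1.77 on the log2 scale (adjusted p = 0.0128). *Atp2b1*, a plasma membrane calcium pump, was at 3.75 ± 0.526 and then 9.05 ± 1.58 FPKM (SD, n = 3), or 1.0 on the log2 scale (adjusted p = 0.00193). Of the other genes of this list known to handle calcium, the calcium-binding protein gene *Calb1* fell (−1.24, adjusted p = 0.0170), while the values were −0.83 for the exchanger gene *Slc8a1* (adjusted p = 0.131) and 0.38 for the pump gene *Atp2b4* (adjusted p = 0.457), which was 0.71 (adjusted p = 0.0469) without IR replicate 3. Without that library the list counts were 3 of 18 lower with a median of −0.15, and 7 of 27 lower and 2 higher with a median of −0.53, against 11.9% of all genes lower.

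Partners that act directly on the 9 genes were read whatever their value. *Oxsr1*, which encodes OSR1, the kinase related to SPAK, stood at 0.85 ± 0.12 in *Tet2*-/- kidneys (log2, SE, adjusted p = 0.00159), and *Cab39*, which encodes the scaffold MO25 that activates SPAK and OSR1, at 0.53 ± 0.12 (SE, adjusted p = 0.00983). Both passed the adjusted p and not the fold threshold. By adjusted p alone 3741 of 16358 genes were higher in this comparison. In WT kidneys the values were 0.27 (adjusted p = 0.299) and 0.06 (adjusted p = 0.841), and the interaction gave adjusted p values of 0.0593 and 0.117. *Cul3*, the ubiquitin ligase scaffold that works with KLHL3, stayed between −0.28 and 0.00 in the 4 comparisons. *Sgk1*, an aldosterone-induced kinase, had −1.41 (adjusted p = 0.0801) in WT kidneys after IR and −0.36 (adjusted p = 0.211) in *Tet2*-/- kidneys. With the replicate block the WT value of *Sgk1* was −1.37 (adjusted p = 0.00631), past both thresholds, and without IR replicate 3 the *Tet2*-/- value was −0.58 (adjusted p = 0.0467). *Nedd4l*, a ubiquitin ligase that SGK1 inhibits, ran from −0.36 to 0.22. *Wnk2* and *Wnk3* were low, at most 0.577 and 0.037 FPKM as group means.

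In WT kidneys after IR 0 of 18 and 0 of 27 partners were called by edgeR, with 4 and 6 at an unadjusted p under 0.05, against 2.35% and 22.7% of all genes. With the replicate block 1 of 18, *Sgk1*, and 0 of 27 were called lower, against 3.49% of all genes. At baseline between genotypes 0 of 18 and 0 of 27 were called, with 5 and 6 at an unadjusted p under 0.05, against 0.0124% and 11.8% of all genes. After IR, 1 of the 18 pathway genes and 3 of the 27 transport and identity genes were called lower in *Tet2*-/- than in WT kidneys, against 3.85% of all genes. The 3 were *Kl* (−1.40, adjusted p = 0.0127), the homeobox gene *Emx1* (−1.28, adjusted p = 0.0443) and the magnesium transport gene *Cnnm4* (−1.08, adjusted p = 0.0288). Without *Tet2*-/- IR replicate 3, 1 of the 18 and, of the 27, *Kl* alone (−1.28, adjusted p = 0.0349) were called lower, against 2.68% of all genes lower, with *Emx1* at −1.41 (adjusted p = 0.0700) and *Cnnm4* at −0.93 (adjusted p = 0.0516).

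Other nephron segments give the scale of the *Tet2*-/- IR effect. The median log2 fold change was −1.72 over 12 proximal tubule markers, 8 of them called lower, and −1.0 over 11 thick ascending limb markers, 5 of them called lower, against 11.6% of all genes. It was −0.50 over 12 connecting tubule and collecting duct markers (3 lower) and −0.50 over 10 intercalated cell markers (4 lower), beside −0.43 and 1 lower for the 9 genes of the distal convoluted tubule. Without IR replicate 3 the medians were −1.93, −0.63, −0.29 and −0.41, with 8, 4, 2 and 4 called lower, beside −0.29 and 1 lower for the 9 genes. In WT kidneys the same medians were −0.42, −0.25, −0.0042 and −0.28, beside −0.24, and without both WT baseline libraries 2 and 3, with 1 baseline library left, they were −0.34, −0.18, −0.026 and −0.32, beside −0.19. In WT kidneys 1, 1, 0 and 0 markers of these lists were called lower, against 0.887% of all genes, and 2, 1, 0 and 0 with the replicate block, against 3.49%. The difference between lists was not tested.

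**Figure D4:**
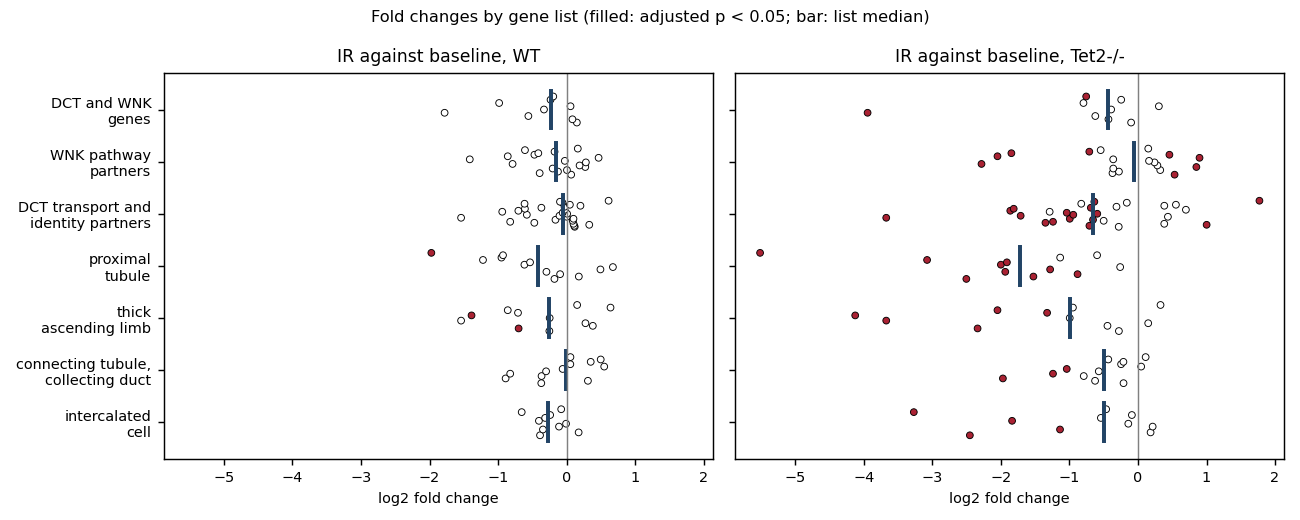
Log2 fold change of IR against baseline (x axis) for each gene of 7 lists (y axis, DCT for distal convoluted tubule) in WT and in *Tet2*-/- kidneys, filled where the adjusted p was under 0.05, with a bar at each list's median. In *Tet2*-/- kidneys the bar of the 9 genes is at −0.43 and that of the proximal tubule at −1.72, and *Pvalb* at −3.94 stands apart from the other 8 genes.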

How the data were processed

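Total RNA of kidney tissue was sequenced, 1 library per mouse. Per the study's methods, STAR aligned the reads to mm9 and HOMER counted reads per RefSeq transcript. The authors deposited expected counts (in steps of 0.5, 38.7% not whole, no normalization) and FPKM of the same transcripts. Tool versions and strand setting are not given in the sources used here. Each symbol was represented by its row with the highest total (34600 rows). Whole counts had been planned for, so counts were rounded. edgeR 4.0.16 (R 4.3.3; TMM, standard low-count filter, quasi-likelihood test, Benjamini-Hochberg over all genes tested) was run on the 6 libraries of each comparison and on all 12 for the interaction. All 9 genes passed the filter in each fit. Calls needed an adjusted p under 0.05 with a log2 fold change beyond −1 or 1, the limits of the study, or the adjusted p alone for the interaction. Intervals cover 95%. DESeq2 1.42.0, limma 3.58.1, other scalings, no filter, the replicate block and each library left out were alternatives. The scripts were tested on simulated data. WT libraries of the same number, baseline against IR, were correlated in their deviations from the group means (0.377, 0.349 and 0.369). They were therefore also read with the replicate block, although the mice differ and no label pairs them. WT IR replicate 3 and *Tet2*-/- IR replicate 3 correlated similarly (0.364), so a pairing is not established. Calls made with the block alone rest on this choice. With 3 against 3, a two-sided exact permutation test cannot go below 0.1. The labels name no litters or batches.

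The text names all 9 genes, up to 6 called partners per comparison with the largest change and a mean of at least 1 FPKM in either group, and fixed direct partners, except 1 item that is not reported here. The genes, gene lists and tests were chosen with earlier results of these data known. Figures were drawn with matplotlib 3.10.9.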

Additional observations from a re-analysis of the deposited data

Results flagged for a closer look

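None of the 9 genes was singled out here. Among the other genes read, 4 whose IR effect differed between *Tet2*-/- and WT kidneys are named. The values are log2 differences from the interaction term of edgeR's quasi-likelihood test. The 4 were *Emx1* (−1.57, adjusted p = 0.0177), *Pcbd1* (−1.16, adjusted p = 0.0120), *Cnnm4* (−1.06, adjusted p = 0.0299) and *Tet2* itself (−2.0, adjusted p = 0.0285). All 4 had the lower log2 fold change after IR in the kidneys labelled *Tet2*-/-. By list, 0 of the 9 genes, 1 of the 18 pathway genes and 3 of the 27 transport and identity genes passed this term. *Tet2* was read apart from these lists. Of all genes tested, 9.16% passed, and whether the lists differ from this share was not tested.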

How the results depend on the processing

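Of the values of the 9 genes, 641 of those recomputed under alternatives kept their direction and their side of the adjusted p of 0.05, 12 passed it only under the alternative, 3 no longer passed it and 46 changed sign, none of them past the threshold. The log2 fold change of *Pvalb* in *Tet2*-/- kidneys after IR passed in all 14 alternatives, from −4.28 to −3.02, with an adjusted p of at most 0.00325. The 3 losses are those of *Wnk4* given with its result. The cause of these moves was not tested. Depth limits *Klhl3* most, with a lowest count of 66, in *Tet2*-/- IR replicate 3.

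Counts of calls over all genes are given as higher and lower. In WT kidneys after IR, DESeq2 gave 488 and 490, limma on log2(FPKM + 1) gave 154 and 82, all 12 libraries in a single fit gave 373 and 258, and leaving out 1 library gave 42 to 365 and 36 to 183, each of the 6 libraries moving at least 1 of the counts by over 1.5 times. In *Tet2*-/- kidneys the adjusted p alone gave 3741 and 3313 (2 of the 9 genes lower), limma on log2(FPKM + 1) gave 816 lower and on log2(FPKM + 0.1) 1260 lower, and leaving out 1 library gave 1 to 2 of the 9 genes lower, with *Trpm6* added without IR replicate 1. Between genotypes at baseline, DESeq2 gave 23 and 298, no filter 1 lower, the single fit 1 lower, and leaving out 1 library 0 to 7 lower, above 0 without WT replicate 1 or 2 or *Tet2*-/- replicate 1. Between genotypes after IR, the adjusted p alone gave 568 and 999, DESeq2 775 higher (2 of the 9 genes lower), limma on log2(FPKM + 1) 226 and 369, the single fit 714 higher, and leaving out 1 library 65 to 319 and 229 to 623, by over 1.5 times for all but WT replicate 2. For the interaction, DESeq2 gave 1209 and 1599, library sizes alone 1129 higher, limma 1069 and 596 with a pseudocount of 1 and 1126 higher with 0.1, and leaving out 1 library 147 to 980 and 485 to 1064, by over 1.5 times for all but *Tet2*-/- IR replicates 2 and 3. Without both WT baseline libraries 2 and 3, chosen after seeing the data for their adipocyte markers, the WT comparison gave 0 and 1 and the interaction 2 and 8. This leaves 1 WT baseline library, assumed to vary like the other groups, so these counts say nothing of the part of the 2 libraries.

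With the replicate block, the WT comparison gave 428 and 559, with 1 of the 9 genes lower. In the other comparisons of groups the same-number correlations did not all reach 0.1. The block gave 2137 and 2056 calls in *Tet2*-/- kidneys, where each library correlated best with its own number (0.0964, 0.332 and 0.265), and the log2 fold change of *Trpm6* became −0.88 (adjusted p = 0.0305). Between genotypes at baseline it gave 2 lower, and *Pvalb* became 0.044. It changed no other call of the 9 genes.

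Further sign changes, all of values that did not pass, were the following. *Kcnj10* in *Tet2*-/- kidneys became 0.16 with library sizes alone and 0.053 and 0.040 with limma (pseudocounts 1 and 0.1). In the interaction *Slc12a3* became 0.15 and *Klhl3* 0.12 with library sizes alone, and *Wnk1* became −0.028 with DESeq2 and with its size factors in edgeR. Without both WT baseline libraries 2 and 3, *Stk39* became −0.014 in WT kidneys, *Pvalb* 1.47 and *Kcnj16* 0.0096 between genotypes at baseline, and *Slc12a3* 0.031 and *Wnk1* −0.041 in the interaction. Leaving out 1 library gave in WT kidneys −0.45 to 0.085 for *Wnk1*, −0.93 to 0.30 for *Klhl3*, −0.0055 to 0.12 for *Stk39*, −0.094 to 0.43 for *Kcnj10* and −0.025 to 0.32 for *Kcnj16*, and in *Tet2*-/- kidneys −0.42 to 0.22 for *Kcnj10*. Between genotypes at baseline it gave −0.59 to 0.58 for *Pvalb*, −0.49 to 0.047 for *Kcnj10* and −0.28 to 0.083 for *Kcnj16*, and after IR −0.58 to 0.084 for *Slc12a3*, −0.58 to 0.086 for *Trpm6* and −0.076 to 0.38 for *Stk39*. In the interaction it gave −0.40 to 0.34 for *Slc12a3*, −0.20 to 0.48 for *Trpm6*, −0.29 to 0.20 for *Wnk1*, −0.89 to 0.32 for *Klhl3* and −0.61 to 0.12 for *Kcnj10*. The genotype difference of the log2 ratio of *Kcnj10* to *Kcnj16* ran from −0.087 to 0.19 in the same way.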

Other observations

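Markers of other cell types changed in the same kidneys, where 12.7% of all genes were called higher and 11.6% lower in *Tet2*-/- kidneys, while in WT kidneys 2.35% were called and 22.7% reached an unadjusted p below 0.05. Markers of tubular injury (10 genes) summed to 258 to 364 FPKM in *Tet2*-/- baseline and 12199 to 25009 FPKM in *Tet2*-/- IR libraries, with 8 of 10 called higher, and to 348 to 543 and 1658 to 7787 FPKM in WT libraries, with 5 of 10 called higher. Neutrophil markers (9 genes) summed to 75.5 to 134 FPKM in *Tet2*-/- IR libraries and to at most 9.49 FPKM in every other library. Of the 9, 8 passed the low-count filter in *Tet2*-/- kidneys, all of them called higher, and 3 passed it in WT kidneys. Markers that passed only in *Tet2*-/- kidneys did so through the IR libraries where they were high, so the share called is not a separate result. Of 10 macrophage markers, 3 were called higher and 1 lower in *Tet2*-/- kidneys and 2 higher in WT kidneys. Of 8 podocyte markers, edgeR called 6 higher in *Tet2*-/- kidneys and 0 in WT kidneys, where 1 had an unadjusted p under 0.05. Of 10 endothelial markers 0 were called in either genotype, with 1 at an unadjusted p under 0.05 in each. With the replicate block, 1 injury marker (*Timp2*), 1 macrophage marker (*Csf1r*) and 3 endothelial markers (*Emcn*, *Ehd3* and *Eng*) were also called lower in WT kidneys. So were 4 of 7 adipocyte markers tested, against 3.49% of all genes. In that fit all 10 endothelial markers had an unadjusted p under 0.05, with a median log2 fold change of −1.24, against 4379 of 16015 genes. Without *Tet2*-/- IR replicate 3 the counts in *Tet2*-/- kidneys were 8 injury, 8 neutrophil, 3 macrophage and 6 podocyte markers higher, 1 macrophage marker lower and 0 endothelial markers. Adrenal markers (10 genes) summed to at most 2.23 FPKM in any library.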
